A study of Homo sapiens with 12 samples.

Results

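The EGF receptor family and its ligands were followed in HK2 cells through 8 genes, chosen by name: the receptors EGFR, ERBB2 and ERBB3 and the ligands AREG, EREG, HBEGF, TGFA and BTC. Each was matched by symbol to 1 of the 62703 Ensembl gene identifiers in the deposited files. HK2 is an immortalised human cell line derived from the renal proximal tubule, and the 12 RNA libraries made from it fall into 4 groups of 3. NG cells were grown in 5.5 mM glucose and received a control vector. HG cells were exposed to 50 mM glucose. The si-FGF9 cells received an siRNA against FGF9, a fibroblast growth factor, by lipofection in normal glucose. The HG + OE-FGF9 cells carried an FGF9-overexpressing vector in 50 mM glucose, called a lentivirus in the methods and an adenovirus elsewhere in the study. A control vector is named for NG only, and none for HG. A vector and glucose therefore cannot be told apart in HG versus NG. The same holds for a vector and FGF9 in HG + OE-FGF9 versus HG. The study describes the NG medium in its results as one with mannitol and describes no control siRNA. A control vector, an siRNA as such and a lowering of FGF9 therefore cannot be told apart in si-FGF9 versus NG. The study does not say whether the libraries of a group came from separate cultures. The p-values therefore measure the spread between these libraries, which may be technical.

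The EGF receptors are receptor tyrosine kinases of the cell surface. A ligand is made as a membrane-bound precursor and is cut free by ADAM proteases, and its binding makes the receptors pair and phosphorylate each other. EGFR binds each of the 5 ligands described here. ERBB2 has no known ligand and works as the partner of the others, and ERBB3 binds neuregulins but has little kinase activity of its own. The RAS-ERK and PI3K-AKT cascades lie downstream. In the renal tubule, EGFR signalling is known for its part in repair after injury and, when prolonged, in fibrosis.

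The values are TPM, transcripts counted against a fixed total of transcripts per library, which allow for gene length. TPM have the same sum in every library and keep no record of depth, so the counting error of each value is unknown. The number of genes that reached 1 TPM ranged from 11549 to 13949 across the libraries. FGF9 itself was listed at 0 TPM in the 9 libraries of NG, HG and si-FGF9 and at 3.34, 4.03 and 3.82 in HG + OE-FGF9, so these files do not show the knockdown. Of 9 proximal tubule markers, GGT1 was abundant (71.7 to 195 TPM), while LRP2, CUBN, SLC34A1 and SLC22A6 did not pass 0.15 in any library and ANPEP did not pass 0.26. SLC5A2 ranged from 0.16 to 3.01 TPM, AQP1 from 0.47 to 2.34 and MME from 0.03 to 2.04, and these reached 1 TPM in 5, 6 and 3 of the libraries. KRT8, KRT18 and VIM had at least 211 TPM throughout and CDH1 at most 0.28. The 3 endothelial markers summed to at most 0.13 TPM. Of the leukocyte markers PTPRC and CD3E did not pass 0.07, while CD68, which other cells also express, had 108 to 159 TPM.

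EGFR, on chromosome 7 (55019021 to 55211628, plus strand, GENCODE 29 on GRCh38), was lower in the 3 other groups than in NG. Its level was 38.9, 32.8 and 31.8 TPM in NG. In HG it was 11.9, 8.22 and 18.6 TPM. The si-FGF9 libraries had 9.63, 10.3 and 7.70 TPM and the HG + OE-FGF9 libraries 9.39, 10.4 and 15.0. Every NG library thus lay above every other library, while the 3 other groups overlapped. All 14639 genes that reached 1 TPM in at least 3 libraries entered a limma fit on log2(TPM + 1), a scale on which changes of scarce transcripts come out smaller than they are. A gene was called where its log2 fold change was at least 1 in either direction and its unadjusted p under 0.01. EGFR was called in HG versus NG, with a log2 fold change of -1.41 (SE 0.26, 95% interval -1.98 to -0.85, limma, adjusted p = 0.0017). It was also called in si-FGF9 versus NG, at -1.80 (SE 0.26, limma, adjusted p = 7.18e-05). Between HG + OE-FGF9 and HG the log2 fold change was -0.10, with a 95% interval of -0.66 to 0.47. In bulk RNA, fewer cells that express a gene and less of its RNA per cell cannot be told apart.

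The EGFR differences moved with the scaling of the libraries. The median log2 fold change over all genes tested was -0.39 in HG versus NG, -0.79 in si-FGF9 versus NG and -0.13 in HG + OE-FGF9 versus HG. Rescaling each library by its median ratio over genes brought these medians to between -0.03 and 0.00, and EGFR to -0.92 in HG and -0.83 in si-FGF9. A correction for the GC content of each gene, which removes a trend along GC content as well as the overall shift of a library, gave -0.97 and -1.0, both short of the fold limit before rounding. After the GC correction EGFR was below NG by an adjusted p of 0.00471 and 0.00112, but it was not called in either comparison under either treatment of the data. Quantile normalization gave -1.02 and -0.98, and a call in HG only. Relative to the median of all genes, EGFR was lower in both groups under the 3 scales.

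ERBB2, the ligandless partner receptor on chromosome 17 (39687914 to 39730426, plus strand), was not called in any comparison. Its TPM were 12.4, 11.2 and 11.3 in NG. HG had 14.9, 14.5 and 8.20 TPM, the widest spread of the 4 groups. In si-FGF9 it had 9.32, 8.31 and 9.59 TPM, all below NG, and HG + OE-FGF9 had 11.1, 10.2 and 12.6. Relative to NG, its log2 fold change was 0.06 in HG (95% interval -0.39 to 0.51) and -0.32 in si-FGF9 (95% interval -0.78 to 0.13, limma, adjusted p = 0.182). These intervals leave room for no change and for a moderate one in either direction. The sign in si-FGF9 depended on the scaling, since it was 0.62 after median-of-ratios scaling and -0.13 after the GC correction.

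ERBB3, the neuregulin receptor on chromosome 12 (56076799 to 56103505, plus strand), was close to the limit of 1 TPM in every group. It was between 0.37 and 1.13 TPM in NG and between 0.24 and 1.37 in HG. It was between 0.73 and 1.67 TPM in si-FGF9 and between 0.51 and 1.04 in HG + OE-FGF9, so all 4 groups overlapped. At such levels the difference from NG was not resolved, with log2 fold changes of 0.04 in HG (95% interval -0.56 to 0.63) and 0.31 in si-FGF9 (95% interval -0.28 to 0.90). ERBB4, the remaining receptor of the family, was listed at 0 in all 12 libraries.

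Within a library the balance of the receptors can be read without any scaling between libraries. ERBB2 reached 0.318, 0.340 and 0.356 times the TPM of EGFR in the 3 NG libraries. The ratio was 1.25, 1.77 and 0.442 in HG. The si-FGF9 libraries had ratios of 0.968, 0.807 and 1.25, and the HG + OE-FGF9 libraries 1.18, 0.98 and 0.842. No library outside NG had a ratio as low as those of NG, and HG replicate 3 came nearest to them. EGFR thereby made up 72.2 to 75.3% of the summed TPM of the 3 receptors in NG, and 35.7 to 66.0%, 40.6 to 51.8% and 43.7 to 52.3% in the other groups in the same order. On the GC-corrected scale the mean difference of ERBB2 minus EGFR was -1.07 in NG (-1.11 to -1.05), -0.08 in HG (-0.93 to 0.44), -0.21 in si-FGF9 (-0.37 to -0.05) and -0.17 in HG + OE-FGF9 (-0.28 to -0.01). The ratio is a description and was not tested.

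**Figure D1:**
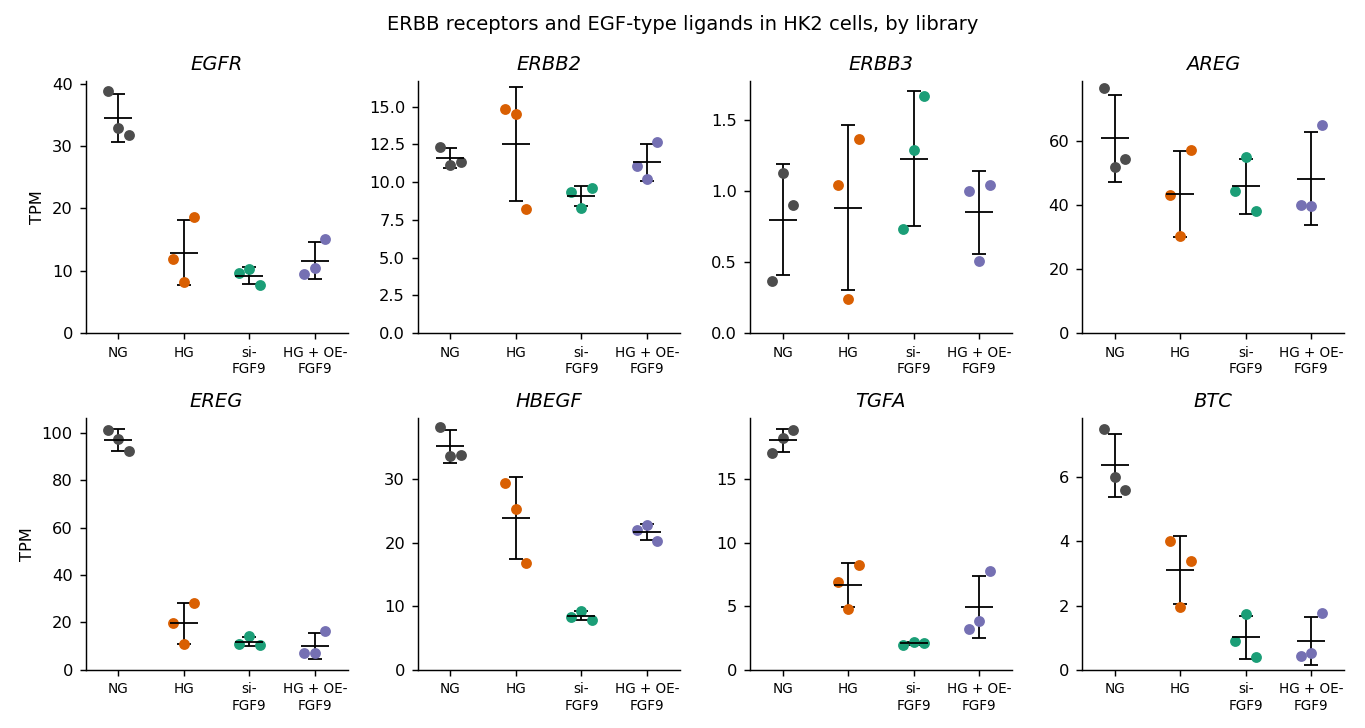
TPM (vertical axes, each from 0) of the 3 receptors and 5 ligands in the 4 groups; each point is a library, and the horizontal line and bars are the mean and SD of 3 libraries. NG lies above every other library for EGFR, EREG, HBEGF, TGFA and BTC, whereas the groups overlap for ERBB3 and AREG.

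EREG encodes epiregulin, a ligand of EGFR and ERBB4, and had the largest log2 fold changes from NG of the 8 genes on the TPM as deposited. It lies on chromosome 4 (74365143 to 74388751, plus strand). Its TPM were 101, 97.2 and 92.2 in NG, the highest of the 5 ligands there. HG had 19.7, 11.02 and 28.2 TPM. The si-FGF9 libraries had 11.04, 14.1 and 10.3 TPM, and HG + OE-FGF9 had 6.87, 6.93 and 16.5. The lowest NG library was thus more than 3 times as high as the highest library outside NG. The mean was 4.93 times lower in HG than in NG, with a log2 fold change of -2.34 (SE 0.34, limma, adjusted p = 7.73e-04). In si-FGF9 the mean was 8.19 times lower than in NG, with a log2 fold change of -2.94 (SE 0.34, limma, adjusted p = 1.93e-05). EREG was called in both comparisons under median-of-ratios scaling (-1.83 and -1.95), quantile normalization (-2.15 and -2.35) and the GC correction (-1.21 and -1.30). The GC correction took the most from it, and EREG had the lowest GC content of the 8 genes, at 36.1% of its longest transcript. After that correction TGFA (-1.68) and HBEGF (-1.33) were further below NG than EREG in si-FGF9.

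The log2 fold change of EREG in HG + OE-FGF9 versus HG was -0.91 (95% interval -1.65 to -0.17), which did not pass the call (limma, adjusted p = 0.109). The groups overlapped, because HG replicate 2 (11.02 TPM) lay below HG + OE-FGF9 replicate 3 (16.5 TPM). With 1 of the 6 libraries left out in turn, EREG was called in 2 cases only. Those 2 cases left out 1 or the other of these libraries, at -1.26 and -1.29, and the 6 values ranged from -1.29 to -0.62. It was -0.79 after median-of-ratios scaling, -0.78 after quantile normalization and -0.57 after the GC correction, and not called under any of them.

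TGFA encodes transforming growth factor alpha, an EGFR ligand on chromosome 2 (70447280 to 70554193, minus strand). It had 17.1, 18.3 and 18.9 TPM in NG and 6.89, 4.82 and 8.28 in HG. The si-FGF9 libraries were close together at 1.98, 2.21 and 2.12 TPM, and HG + OE-FGF9 had 3.23, 3.84 and 7.77. NG was the highest group and si-FGF9 the lowest, and neither overlapped another group. TGFA was called in HG versus NG, with a log2 fold change of -1.34 (SE 0.26, limma, adjusted p = 0.00212). It was called in si-FGF9 versus NG at -2.62 (SE 0.26, limma, adjusted p = 9.75e-06), and there also under median-of-ratios scaling (-1.76), quantile normalization (-1.66) and the GC correction (-1.68). In HG versus NG it was -0.86 after median-of-ratios scaling and -0.79 after the GC correction, and not called.

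HBEGF encodes heparin-binding EGF-like growth factor, a ligand of EGFR and ERBB4 on chromosome 5 (140332843 to 140346631, minus strand). Its TPM were 38.2, 33.6 and 33.8 in NG. HG had 29.5, 25.3 and 16.8 TPM and HG + OE-FGF9 had 22.02, 22.9 and 20.4. Levels in si-FGF9 were 8.32, 9.29 and 7.91 TPM, all below every library of the other groups. In si-FGF9 versus NG HBEGF was called with a log2 fold change of -1.93 (SE 0.19, limma, adjusted p = 8.92e-06), the smallest SE of the 8 genes. In HG versus NG it was -0.58 (95% interval -0.98 to -0.17, limma, adjusted p = 0.0239) and not called. After median-of-ratios scaling, HBEGF was -0.08 in HG versus NG and -0.96 in si-FGF9 versus NG, and not called in either. After the GC correction it was called in si-FGF9 versus NG at -1.33.

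HBEGF was also lower in si-FGF9 than in the cells of high glucose. The log2 fold change was -1.35 in si-FGF9 versus HG (SE 0.19, limma, adjusted p = 0.00171) and -1.26 in si-FGF9 versus HG + OE-FGF9 (SE 0.19, limma, adjusted p = 9.92e-04), and both were called. The first was -0.88 after median-of-ratios scaling and -1.03 after the GC correction. The second was -0.92 and -0.90. All 6 libraries of high glucose had between 16.8 and 29.5 TPM, and no si-FGF9 library passed 9.29.

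BTC encodes betacellulin, a ligand of EGFR and ERBB4, and was the lowest of the 5 ligands in NG. It lies on chromosome 4 (74744759 to 74794686, minus strand). BTC had 7.49, 6.01 and 5.61 TPM in NG and 4.0, 1.95 and 3.40 in HG. The si-FGF9 libraries had 0.89, 1.74 and 0.39 TPM and HG + OE-FGF9 had 0.42, 0.52 and 1.76. The 2 latter groups overlapped each other and lay below HG, which lay below NG. BTC was called in si-FGF9 versus NG at a log2 fold change of -1.92 (SE 0.32, limma, adjusted p = 1.77e-04), but not in HG versus NG, at -0.87 (SE 0.32, limma, adjusted p = 0.0385). The GC correction brought these to -0.37 and 0.16.

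BTC was the only one of the 8 genes called in HG + OE-FGF9 versus HG. The log2 fold change was -1.15 (95% interval -1.84 to -0.46, limma, adjusted p = 0.0412). It was -1.09 after median-of-ratios scaling and still called, and -0.86 after the GC correction and not called. The call rested on single libraries, since leaving out 1 of the 6 libraries in turn kept it in 2 cases and gave log2 fold changes between -1.45 and -0.97. Those 2 cases left out HG replicate 2 or HG + OE-FGF9 replicate 3.

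AREG encodes amphiregulin, an EGFR ligand on chromosome 4 (74445134 to 74455009, plus strand), and was not called in any comparison. Its TPM were 76.3, 51.6 and 54.4 in NG and 43.1, 30.2 and 57.0 in HG. The si-FGF9 libraries had 44.2, 54.9 and 38.0 TPM, and HG + OE-FGF9 had 40.0, 39.5 and 65.0. All 4 groups overlapped. Relative to NG, AREG had a log2 fold change of -0.50 in HG (95% interval -1.07 to 0.08, limma, adjusted p = 0.138) and -0.40 in si-FGF9 (95% interval -0.97 to 0.18, limma, adjusted p = 0.200). Its sign changed with the scaling, to 0.01 and 0.62 after median-of-ratios scaling and to 0.10 and 0.60 after the GC correction, so no direction is given for it.

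The 3 ligand genes EREG, AREG and BTC are near each other on chromosome 4, with EPGN, the gene of epigen, next to EREG. EPGN did not pass 0.43 TPM in any library. The sequences before the annotated starts are shown because the neighbours EREG and AREG differed in the libraries while lying within the same stretch of the chromosome. Each is the 250 bases upstream of the RefSeq start on the strand of the gene in GRCh38.p14, at chr4:74444886-74445135 for AREG (plus strand), chr4:74364895-74365144 for EREG (plus strand) and chr4:74794524-74794773 for BTC (minus strand). Capitals mark the cyclic AMP response element TGACGTCA and the TATA box TATAAA where a search found these letters.
AREG: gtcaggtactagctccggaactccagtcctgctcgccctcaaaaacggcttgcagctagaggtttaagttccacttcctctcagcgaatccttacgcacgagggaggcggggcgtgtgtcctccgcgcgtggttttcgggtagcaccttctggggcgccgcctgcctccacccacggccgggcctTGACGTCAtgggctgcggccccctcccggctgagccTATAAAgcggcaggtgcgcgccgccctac
EREG: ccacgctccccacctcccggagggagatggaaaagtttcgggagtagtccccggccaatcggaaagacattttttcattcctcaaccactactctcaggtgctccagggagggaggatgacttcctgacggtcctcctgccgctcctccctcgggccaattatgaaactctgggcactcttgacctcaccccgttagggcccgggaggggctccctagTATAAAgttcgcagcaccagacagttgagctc
BTC: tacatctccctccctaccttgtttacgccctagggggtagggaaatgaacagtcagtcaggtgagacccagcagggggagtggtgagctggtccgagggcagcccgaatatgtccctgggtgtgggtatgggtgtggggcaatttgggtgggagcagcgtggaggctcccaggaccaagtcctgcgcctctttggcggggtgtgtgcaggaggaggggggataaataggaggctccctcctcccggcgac

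In AREG, TGACGTCA begins 65 bases and TATAAA 29 bases before the start. EREG has TATAAA 32 bases before its start and no TGACGTCA, and BTC has neither in this window. Among the 35116 windows of the same length in the RefSeq table, TGACGTCA, which reads the same on both strands, was found in 1.65% and TATAAA, on either strand, in 10.7%. The GC box GGGCGG, sought on both strands and found in 42.6% of all windows, occurred in the first windows of EGFR, HBEGF and TGFA and in AREG, where it begins 9 bases before the start on the other strand. The AP-1 motif TGANTCA, where N is any base, was found in 6.57% of windows, and among these genes in ERBB2, 222 bases before the start, and in the second of the 2 windows of EGFR. Of the 8 genes, 7 had a window, and ERBB3 is named only. A match describes the letters of the window and says nothing about a factor.

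The make-up of the ligand transcripts shifted within the libraries. The 5 ligands summed to 205 to 240 TPM in NG and 73.3 to 114 TPM in HG. The sum was 58.7 to 82.3 TPM in si-FGF9 and 72.5 to 111 TPM in HG + OE-FGF9. Median-of-ratios scaling divides each library by a factor, which was 1.443 to 1.521 in NG and 0.9019 to 1.123 in HG. The factor was 0.691 to 0.7564 in si-FGF9 and 0.8686 to 1.097 in HG + OE-FGF9. The sum, taken on the TPM as deposited, therefore depends on the scaling between libraries, and the shares within a library do not. EREG gave 42.2 to 47.0% of this sum in NG, against 15.0 to 24.8% in HG, 16.6 to 17.6% in si-FGF9 and 9.41 to 14.8% in HG + OE-FGF9. AREG gave 25.0 to 31.7% in NG, 41.2 to 50.1% in HG, 64.7 to 66.8% in si-FGF9 and 53.6 to 58.4% in HG + OE-FGF9. AREG was thus the most abundant ligand in all 9 libraries outside NG, and EREG in the 3 libraries of NG.

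The ratio of EREG to AREG was 1.33, 1.88 and 1.70 in the NG libraries. It was 0.458, 0.364 and 0.494 in HG. In si-FGF9 it was 0.25, 0.257 and 0.272, and the HG + OE-FGF9 libraries 0.172, 0.176 and 0.254. NG did not overlap any other group, and HG did not overlap si-FGF9 or HG + OE-FGF9. EREG has the lower GC content of the pair (36.1% against 45.3%), so the ratio was also taken on the GC-corrected scale. There the mean log2 difference of EREG minus AREG was 0.20 in NG (-0.13 to 0.42), -1.11 in HG (-1.25 to -0.99), -1.70 in si-FGF9 (-1.80 to -1.50) and -1.94 in HG + OE-FGF9 (-2.07 to -1.73). The HBEGF to AREG ratio was 0.501 to 0.651 in NG, 0.295 to 0.837 in HG and 0.313 to 0.579 in HG + OE-FGF9, and 0.169 to 0.208 in si-FGF9 only. The TGFA to AREG ratio was likewise lowest in si-FGF9, at 0.0402 to 0.0558, against 0.224 to 0.354 in NG. These ratios are descriptions and were not tested.

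**Figure D2:**
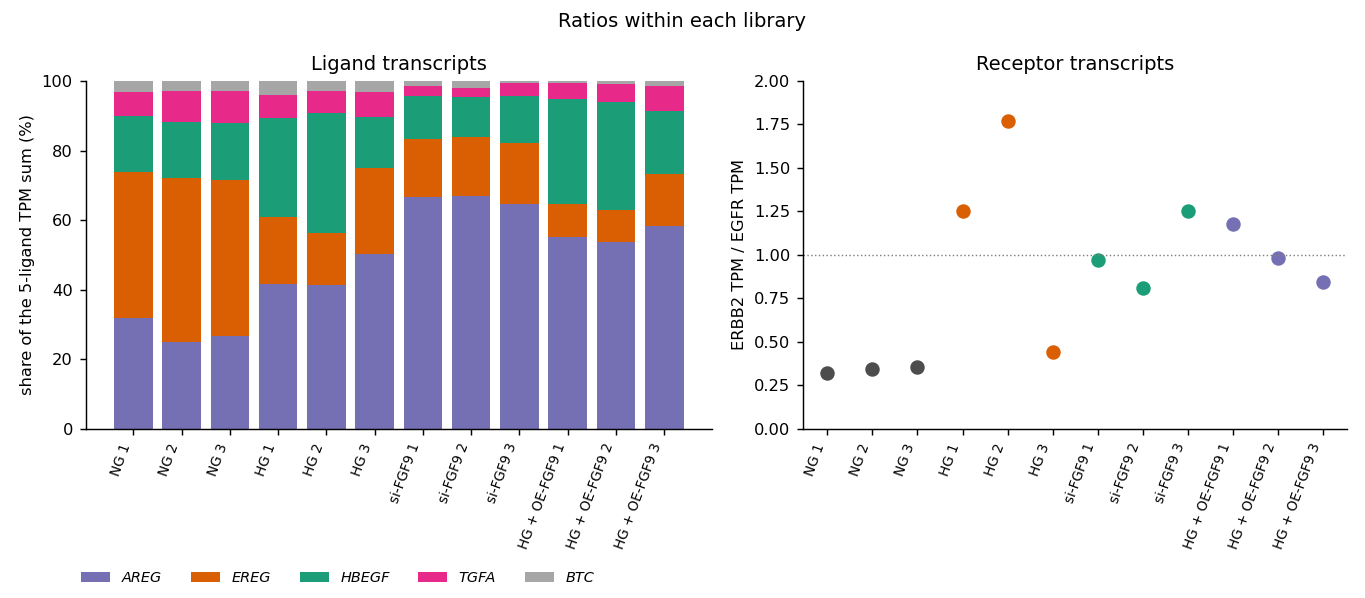
Left, the share of each ligand (%) in the summed TPM of the 5 ligands, a bar for each of the 12 libraries; right, the TPM of ERBB2 divided by that of EGFR, a point for each library, with a dotted line at 1. AREG takes 25.0 to 31.7% of the ligand sum in NG and 64.7 to 66.8% in si-FGF9, and the receptor ratio is 0.318 to 0.356 in NG and at least 0.442 elsewhere.

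Counted together, 3 of the 8 genes (EGFR, EREG, TGFA) were called lower in HG versus NG and 0 higher, where 22.7% of all genes tested were called lower. All 8 passed the filter on low values. At an unadjusted p under 0.05 alone, limma gave 5 lower and 0 higher, against 45.0% and 10.8% of all genes. The median log2 fold change of the 8 was -0.72, against -0.39 over all genes. HG did not overlap NG and was lower in 5 of the 8 genes, and in 46.5% of all genes. After median-of-ratios scaling 1 of the 8 was called lower (EREG), against 8.47% of all genes. After the GC correction it was again 1 of 8 (EREG), against 3.06%.

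In si-FGF9 versus NG 5 of the 8 genes (EGFR, EREG, TGFA, HBEGF, BTC) were called lower and 0 higher. The background was high, with 42.2% of all genes called lower. At an unadjusted p under 0.05 alone, limma gave 5 lower and 0 higher, against 59.1% and 12.3% of all genes. The median log2 fold change of the 8 was -1.86, against -0.79 over all genes. In 6 of the 8, ERBB2 included, the groups did not overlap, against 62.1% of all genes. EREG, TGFA and BTC were called lower after median-of-ratios scaling, where 17.8% of all genes were, and EREG, TGFA and HBEGF after the GC correction, where 12% were.

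Between HG + OE-FGF9 and HG 1 of the 8 genes (BTC) was called lower and 0 higher, against 2.67% of all genes called lower. The median of the 8 was -0.10, close to that of all genes. BTC was also the 1 gene whose groups did not overlap, as in 9.95% of all genes with HG + OE-FGF9 lower. Median-of-ratios scaling kept BTC, with 1.92% of all genes called lower, and the GC correction left 0 of 8, with 2.18%. None of the 8 genes was called in the direction of its NG level. The log2 fold change relative to HG was between -0.10 and 0.15 for EGFR, ERBB2, ERBB3, AREG and HBEGF, -0.42 for TGFA, and -0.91 and -1.15 for EREG and BTC, whose means lay further from NG. This comparison shares its HG libraries with HG versus NG, which in turn shares its NG libraries with si-FGF9 versus NG.

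**Figure D3:**
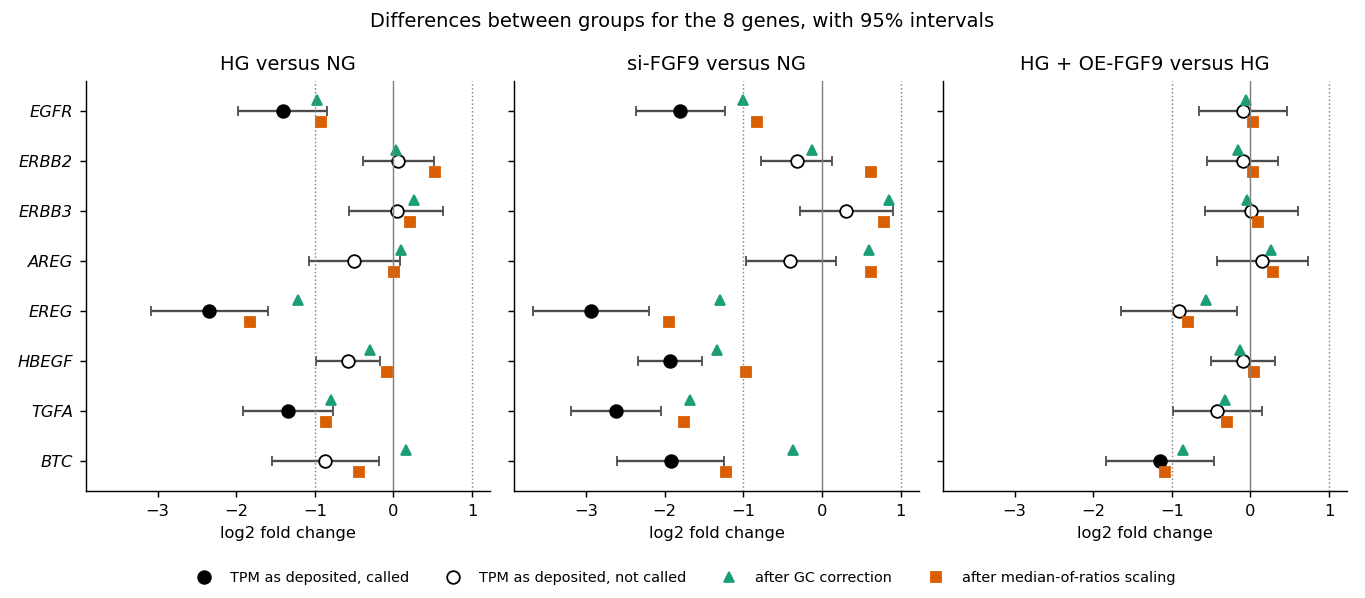
Log2 fold change (horizontal axes) of the 8 genes in the 3 comparisons, with limma's 95% intervals; filled circles are called and open circles are not, triangles show the GC-corrected value and squares the value after median-of-ratios scaling, and dotted lines mark -1 and 1. EREG stays beyond -1 on all 3 scales in both comparisons with NG, while AREG lies at or above 0 on the rescaled values.

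The order of the groups differed between the genes. From low to high, EGFR ran si-FGF9, HG + OE-FGF9, HG and NG by mean TPM (9.21, 11.6, 12.9 and 34.5), and neighbours below NG did not differ beyond their spread (limma, adjusted p = 0.453 and 0.824). TGFA had the same order (2.10, 4.95, 6.66 and 18.1 TPM). Its lower neighbours differed by -0.86 between si-FGF9 and HG + OE-FGF9 (limma, adjusted p = 0.0316, not called) and by -0.42 between HG + OE-FGF9 and HG (limma, adjusted p = 0.310). HBEGF followed it as well (8.51, 21.7, 23.9 and 35.2 TPM), with the step between si-FGF9 and HG + OE-FGF9 called.

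In EREG and BTC the lowest mean was that of HG + OE-FGF9. EREG had means of 10.1, 11.8, 19.6 and 96.9 TPM in HG + OE-FGF9, si-FGF9, HG and NG, and the only called step was that from HG to NG. BTC had 0.9, 1.01, 3.12 and 6.37 TPM in the same order, and the called step lay between si-FGF9 and HG (log2 fold change -1.06, SE 0.32, limma, adjusted p = 0.0257). This step was called in 2 of the 6 cases in which a library was left out, and not after median-of-ratios scaling (-0.79), quantile normalization (-0.73) or the GC correction (-0.53). For ERBB2, ERBB3 and AREG no neighbouring groups differed beyond their spread, with adjusted p from limma between 0.266 and 0.979.

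Of the contrasts across the design, HG + OE-FGF9 versus NG had 4 of the 8 genes called lower (EREG -3.25, BTC -2.02, TGFA -1.76, EGFR -1.51), where 32.7% of all genes were called lower. BTC was at -0.70 after the GC correction and EGFR at -0.89 after median-of-ratios scaling, and neither was then called. HBEGF was -0.67 there (limma, adjusted p = 0.00768) and not called. In si-FGF9 versus HG 3 of the 8 were called lower (HBEGF, TGFA, BTC), against 9.67% of all genes, and TGFA had a log2 fold change of -1.28 (SE 0.26, limma, adjusted p = 0.00561). TGFA and BTC were not called there under median-of-ratios scaling (-0.90 and -0.79), quantile normalization (-0.85 and -0.73) or the GC correction (-0.89 and -0.53), and HBEGF was called only after the GC correction. In si-FGF9 versus HG + OE-FGF9 1 of the 8 was called lower (HBEGF), against 7.36%. Both comparisons of si-FGF9 with high glucose set the siRNA and the glucose against each other at the same time. The comparison with HG + OE-FGF9 differs in the FGF9-overexpressing vector as well. These factors cannot be told apart in them.

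The further ligands of the family were scarce except NRG1, a neuregulin that binds ERBB3 and ERBB4. NRG1 had 53.0 to 63.6 TPM in NG, 23.5 to 42.3 in HG, 22.2 to 36.1 in si-FGF9 and 33.8 to 44.5 in HG + OE-FGF9. NG lay above every other group, but NRG1 fell short of the call at -0.95 in HG versus NG (limma, adjusted p = 0.00707) and -0.93 in si-FGF9 versus NG (limma, adjusted p = 0.0042), and after the GC correction it was -0.23 and 0.23. EGF itself was at 0.97 to 1.52 TPM in NG and at most 0.94 in HG and 0.29 in si-FGF9. HG + OE-FGF9 had 1.08, 1.76 and 0.35 TPM, and EGF was not called relative to HG (log2 fold change 0.41) or in HG or si-FGF9 relative to NG. NRG2 and NRG4 did not pass 0.26 TPM, and NRG3 was listed at 0 throughout.

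Of a list of 48 further genes of the pathway, 42 passed the filter. In HG versus NG 20 were called lower and 1 higher, HRAS, where 22.7% of all genes were called lower and 1.65% higher. The median was -0.96. In si-FGF9 versus NG 29 were called lower and 3 higher (HRAS, ARAF, MAP2K2), against 42.2% called lower and 5.36% higher over all genes, with a median of -1.73. Median-of-ratios scaling left 13 lower and 2 higher in HG versus NG, against 8.47% and 7.26% of all genes. In si-FGF9 versus NG it left 18 lower and 6 higher, against 17.8% and 18.9% of all genes. In HG + OE-FGF9 versus HG 1 was called lower, ADAM10, and 0 higher, against 2.67% called lower and 2.94% higher over all genes, with a median of -0.30. After the GC correction, 6 of the 42 were called lower and 0 higher in HG versus NG, against 3.06% and 3.78% of all genes. In si-FGF9 versus NG 17 of the 42 were then called lower and 3 higher, against 12% and 12.3% of all genes. The medians after this correction were -0.31 and -0.68.

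Among the 4 genes of ligand shedding, ADAM17 and ADAM10, the proteases that free EGFR ligands, were called lower in HG and si-FGF9 versus NG. Over all genes 22.7% and 42.2% were. RHBDF2 was called lower in si-FGF9 versus NG only (-1.25), and RHBDF1 in neither (0.20 and 0.22). After median-of-ratios scaling RHBDF1 was called higher in si-FGF9 versus NG (1.13), and RHBDF2 was not called (-0.37). ADAM17 had 9.94, 11.3 and 12.3 TPM in NG, but 1.04, 0.41 and 1.80 in HG, and the si-FGF9 libraries had 0.26, 0.37 and 0.14. The log2 fold changes were -2.60 in HG (limma, adjusted p = 5.88e-05) and -3.28 in si-FGF9 (limma, adjusted p = 2.90e-06). ADAM10 had 95.2, 104 and 95.8 TPM in NG and 15.6, 11.02 and 27.0 in HG, a log2 fold change of -2.48 (limma, adjusted p = 6.39e-04). Both stayed called after the GC correction, with ADAM17 at -1.51 and -1.64 and ADAM10 at -1.38 and -1.11. Over all genes 3.06% and 12% were called lower after it. The call of ADAM10 in HG + OE-FGF9 versus HG (-1.10) had an adjusted p of 0.0608 by limma.

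The receptor-level inhibitors were also lower. In HG versus NG 4 of the 6 tested were called lower (ERRFI1, LRIG3, PTPN1, PTPN12), and in si-FGF9 versus NG all 6, CBL and CBLB included, where 22.7% and 42.2% of all genes were. After the GC correction 2 (ERRFI1, LRIG3) were called lower in HG versus NG and 4 in si-FGF9 versus NG, with CBL at -0.70 and CBLB at 0.26 there and not called. Over all genes 3.06% and 12% were then called lower. Median-of-ratios scaling left 3 and 4 called lower, against 8.47% and 17.8% of all genes. LRIG3, of a family of membrane proteins that bind these receptors, had 18.4, 16.6 and 14.6 TPM in NG. It had 3.93, 1.78 and 3.45 TPM in HG, and the si-FGF9 libraries had 0.73, 0.68 and 0.92. Its log2 fold change was -3.30 in si-FGF9 versus NG (limma, adjusted p = 3.33e-06), and -2.43 after the GC correction. USP8, a deubiquitinase that acts on internalised EGFR, was the most reduced gene of the list in si-FGF9 versus NG, at -3.49 (limma, adjusted p = 2.01e-05).

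The adaptors, the RAS-ERK genes and the PI3K genes moved in part only. SOS1, SOS2, GAB1 and PTPN11 were called lower in both comparisons, and GRB2 and SHC1 in neither, where 22.7% and 42.2% of all genes were called lower. Median-of-ratios scaling kept PTPN11, SOS1 and SOS2 in HG versus NG, against 8.47% of all genes. In si-FGF9 versus NG it kept all 4, against 17.8%. Of these adaptors the GC correction left 0 called in HG versus NG and only PTPN11 (-1.20) in si-FGF9 versus NG, with GAB1 at 0.01 and 0.07. Over all genes 3.06% and 12% were then called lower. NRAS was called lower in both, though at -0.15 and -0.45 and not called after the GC correction, while HRAS rose from 15.0, 15.9 and 16.8 TPM in NG to 35.1, 50.3 and 24.9 in HG (log2 fold change 1.10, limma, adjusted p = 0.00293) and to 40.2, 41.3 and 47.2 in si-FGF9 (1.37, limma, adjusted p = 2.20e-04). MAP2K2, the gene of the kinase MEK2, rose in si-FGF9 from 90.4, 110 and 110 TPM to 355, 338 and 396 (1.80, limma, adjusted p = 4.63e-06), and ARAF, a RAF kinase, by 1.37 (limma, adjusted p = 2.09e-04). HRAS was at 0.73 after the GC correction in HG versus NG, and not called. PIK3R1, the regulatory subunit of PI3K, was at -2.32 in HG versus NG (limma, adjusted p = 8.52e-04).

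**Figure D4:**
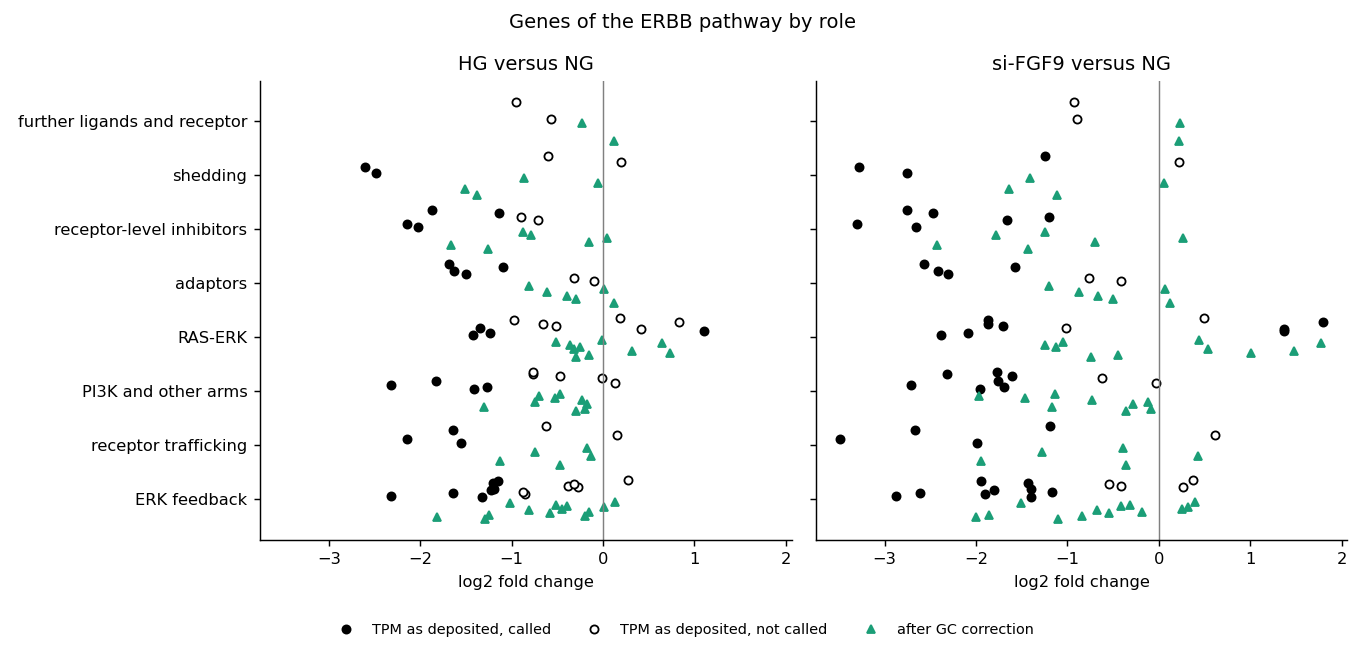
Log2 fold change (horizontal axes) of the tested genes of the pathway list and of the ERK feedback list, grouped by role, with HG versus NG on the left and si-FGF9 versus NG on the right; filled circles are called, open circles are not, and triangles are the GC-corrected values. Of the 42 pathway genes 20 are called lower on the left and 29 on the right, and the GC-corrected values lie nearer to 0 for most of them.

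Genes that ERK activity is known to induce formed a second list of 14, of which 13 were tested. In HG versus NG 7 were called lower and 0 higher, with a median of -1.15, and in si-FGF9 versus NG 9 and 0, with a median of -1.40, where 22.7% and 42.2% of all genes were called lower. The GC correction left 4 and 3 called lower, where 3.06% and 12% of all genes were, and 0 higher, where 3.78% and 12.3% were. Median-of-ratios scaling left 2 lower and 0 higher in HG versus NG, against 8.47% and 7.26% of all genes. In si-FGF9 versus NG it left 4 lower and 2 higher (ETV4, FOSL1), against 17.8% and 18.9% of all genes. In HG + OE-FGF9 versus HG 0 were called by limma in either direction, with a median of -0.16. At an unadjusted p under 0.05 alone, limma gave 2 higher and 2 lower there, against 11.3% and 16.9% of all genes. The higher ones were DUSP5 (0.84) and ETV4 (0.70), and the lower ones SPRY1 (-0.64) and SPRED1 (-0.49). DUSP6, a phosphatase of ERK, had 27.8, 23.7 and 20.8 TPM in NG. It had 5.39, 3.34 and 3.52 TPM in HG, and the si-FGF9 libraries had 1.74, 2.06 and 3.77. Its log2 fold changes were -2.32 (limma, adjusted p = 5.88e-04) and -2.87 (limma, adjusted p = 1.05e-05). SPRY2, an inhibitor of receptor tyrosine kinase signalling, was at -1.64 and -2.61, and MYC at -1.15 and -1.94. DUSP5 was at -1.33 (limma, adjusted p = 0.00885) and -1.40, and called in both. After the GC correction DUSP5 was at -1.29 and called in HG versus NG, and at -1.10 and not called in si-FGF9 versus NG. DUSP6, SPRY2 and MYC were called in both comparisons after the GC correction too. After median-of-ratios scaling DUSP6 and SPRY2 were called in both, and MYC (-0.64 and -0.91) and DUSP5 (-0.83 and -0.41) in neither. FOSL1 was at 0.27 and 0.37, and was not called, but in si-FGF9 versus NG it was called at 1.39 after median-of-ratios scaling (limma, adjusted p = 5.37e-05), as was ETV4 at 1.24.

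The genes whose TPM were most like those of each of the 8 over the 12 libraries were found by Pearson's r on log2(TPM + 1) among 7939 protein-coding genes. The 12 libraries share the differences between the 4 groups, so that r describes likeness and no p is given. EREG was most like ERRFI1 (r = 0.998), the feedback inhibitor of EGFR, then ZBTB33 and PTPRA. EGFR was most like NET1 (r = 0.997), TGFA AHCYL1 (r = 0.996) and BTC TXNDC5 (r = 0.994). For these 4 genes between 1697 and 2324 genes had an r over 0.9. HBEGF was most like POM121C (r = 0.984, 318 genes over 0.9) and ERBB2 like HLX (r = 0.971, 51 genes). AREG had 5 genes over 0.9, led by DNAJC12 (r = 0.936), and ERBB3 had 0, its closest being ABTB1 (r = 0.767). Among the 8 themselves, r was 0.96 between EGFR and EREG, 0.66 between AREG and EREG and 0.11 between EGFR and ERBB2.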

How the data were processed

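HK2 cells of the 4 groups were sequenced on a HiSeq3000 by a company. The authors deposited TPM per Ensembl gene, to 2 decimals, in 1 file per library and a table of the series that holds the same values. The submitters' processing notes name Bowtie 0.12.2 and the mouse build mm8, while the identifiers are human; the quantification tool, annotation and human build are not given in the sources used here. TPM keep no depth, so no interval for counting error was possible.

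Groups were taken from the sample titles. A single limma fit (limma 3.58.1, R 4.3.3) with a variance trend held the log2(TPM + 1) values of all 12 libraries and had no term but the group. Benjamini-Hochberg adjustment was over all 14639 genes tested. The criterion for a call (an absolute log2 fold change of 1 or more with p under 0.01) follows the study. GC content and gene positions came from GENCODE 29, and the GC correction fitted a natural spline on GC content (5 degrees of freedom) to the values of each library and took it away. Promoter windows are from RefSeq. The fit and the GC correction were tested on simulated data.

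The 8 genes, the pathway list, the ERK list and the marker lists were chosen with earlier results of these data known, and the tests and alternatives likewise. Named from the lists were the further ligands, ERBB4 and, in each comparison, the 3 called genes with the largest change in each direction; other genes of the lists that are named were chosen after their values were seen. The genes most like each of the 8 were the 3 with the highest r. Alternatives were no filter or a filter that asks for 1 TPM in every library, a pseudocount of 0.1, only the 6 libraries of a comparison, the replicate number as a block, other scalings, the GC correction, no variance trend, an adjusted p under 0.05, and each library left out in turn.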

Additional observations from a re-analysis of the deposited data

How the results depend on the processing

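The scaling between libraries and the GC correction moved the calls against NG, and the cause was not tested. Over all genes, the calls in HG versus NG were 242 higher and 3328 lower, against 1063 and 1240 after median-of-ratios scaling, 1016 and 1220 after quantile normalization and 536 higher and 434 lower after the GC correction. For si-FGF9 versus NG they were 785 and 6181, against 2774 and 2613, 2373 and 2500, and 1751 and 1701. The calls in HG + OE-FGF9 versus HG were 430 and 391, against 505 and 281, 487 and 318, and 430 and 309.

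Of the 8 genes, 3 were called in HG versus NG, against 1 after median-of-ratios scaling or the GC correction. In si-FGF9 versus NG it was 5, against 3 after median-of-ratios scaling, quantile normalization or the GC correction. In HG + OE-FGF9 versus HG it was 1, against 0 after the GC correction, in a fit of only the 6 libraries of the comparison, or with a TPM of at least 1 required in all 12 libraries, where BTC is not tested. The pathway list had 21 calls in HG versus NG, against 6 after the GC correction, and 32 in si-FGF9 versus NG, against 20. Its 1 call in HG + OE-FGF9 versus HG became 0 without the filter, in a fit of 6 libraries, after each rescaling, after the GC correction and with an adjusted p under 0.05. The ERK list had 7 calls in HG versus NG, against 2 after median-of-ratios scaling, 3 after quantile normalization and 4 after the GC correction, and 9 in si-FGF9 versus NG, against 5 after quantile normalization and 3 after the GC correction.

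Of the 8 genes, values that changed sign had been uncalled. Called genes of the pathway list that changed sign after the GC correction were GAB1 (0.01 in HG versus NG, 0.07 in si-FGF9 versus NG, 0.13 in HG + OE-FGF9 versus NG), CBLB (0.26 in si-FGF9 versus NG) and BRAF (0.03 in HG + OE-FGF9 versus NG). After median-of-ratios scaling AREG was 0.01 (HG versus NG), 0.62 (si-FGF9 versus NG), 0.30 (HG + OE-FGF9 versus NG), also 0.32 (si-FGF9 versus HG + OE-FGF9), and HBEGF 0.04 (HG + OE-FGF9 versus HG). ERBB2 was 0.62, 0.56 and 0.06 in the last 3 contrasts named for AREG, 0.03 in HG + OE-FGF9 versus HG and 0.09 in si-FGF9 versus HG. EGFR was 0.03 in HG + OE-FGF9 versus HG, 0.09 in si-FGF9 versus HG and 0.06 in si-FGF9 versus HG + OE-FGF9. After quantile normalization AREG was 0.17, 0.03 and 0.14 in the last 3 contrasts named for it, ERBB2 0.70, 0.67 and 0.03 in these and 0.04 and 0.07 in HG + OE-FGF9 versus HG and si-FGF9 versus HG, and EGFR 0.01, 0.03 and 0.02 in the 3 contrasts just named for it. After the GC correction, with or without the replicate block, AREG was 0.10, 0.60, 0.36 and 0.24 in the 4 contrasts first named, BTC 0.16 in HG versus NG, ERBB3 -0.04 in HG + OE-FGF9 versus HG and EGFR 0.03 in si-FGF9 versus HG + OE-FGF9. ERBB3 was -0.01 in HG versus NG with a pseudocount of 0.1.

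With a library left out, the 8 genes kept 3 and 5 calls in the 2 comparisons with NG and had 0 to 2 in HG + OE-FGF9 versus HG. There they had 0 when HG replicate 1 or 3 or HG + OE-FGF9 replicate 1 or 2 was absent, and 2 when HG replicate 2 or HG + OE-FGF9 replicate 3 was. The pathway list had 15 to 24 calls in HG versus NG. In HG + OE-FGF9 versus HG it had 0 to 7, reaching 7 without HG replicate 2 and 6 when HG + OE-FGF9 replicate 3 was absent. The ERK list had 3 to 7 calls in HG versus NG, with 3 without HG replicate 2. It had 0 to 1 for HG + OE-FGF9 versus HG, with 1 without HG replicate 3. Log2 fold changes that changed sign ranged as follows. In HG + OE-FGF9 versus HG, EGFR ranged from -0.36 to 0.18, ERBB2 from -0.36 to 0.04, ERBB3 from -0.26 to 0.20, AREG from -0.08 to 0.37 and HBEGF from -0.32 to 0.07. In HG versus NG, ERBB2 ranged from -0.08 to 0.32 and ERBB3 from -0.15 to 0.31. In HG + OE-FGF9 versus NG, ERBB2 ranged from -0.11 to 0.03 and ERBB3 from -0.13 to 0.19. In si-FGF9 versus HG, AREG ranged from -0.13 to 0.32. In si-FGF9 versus HG + OE-FGF9, AREG ranged from -0.19 to 0.18 and BTC from -0.16 to 0.39.

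The replicate numbers did not pair the libraries: the deviations of same-numbered libraries of different groups correlated at -0.44 to 0.25 (median -0.06), with 3 of 18 pairs over 0.1. The replicate block kept the 3, 5 and 1 calls of the 8 genes, took the pathway call in HG + OE-FGF9 versus HG to 0 and ended the call of BTC in si-FGF9 versus HG (-1.06). With the GC correction and the replicate block together the counts were those of the GC correction (1, 3 and 0 of the 8 genes, 6, 20 and 0 of the pathway list, 4 and 3 of the ERK list). Depth could not be judged from TPM, so the precision of the low genes ERBB3 and BTC is unknown beyond the spread of 3 libraries.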
